A study of Bos taurus with 96 samples.

Results

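ALB (ENSBTAG00000017121), TF (ENSBTAG00000007273), TTR (ENSBTAG00000010991), AHSG (ENSBTAG00000000522), AMBP (ENSBTAG00000015676) and SERPINA1 (ENSBTAG00000018843) encode plasma carriers and inhibitors that the liver secretes. They were taken by name and identifier, as 6 of the 24616 genes in the count tables, by a rule that uses no measured value. Their transcripts were followed in liver through late pregnancy (LP), early lactation (EL) and mid-lactation (ML), and their traces were read in skeletal muscle of the same cows. The 16 lactating Holstein cows carried either good (Fert+, n = 8) or poor (Fert-, n = 8) genetic merit for fertility, and were otherwise managed together. Each cow gave a liver biopsy and a muscle biopsy at each of the 3 time-points, which makes 96 polyA RNA-seq libraries. The fertility classes are breeding values for calving interval, so they separate 2 sets of outbred cows and no single allele. The number that opens each library title was read as the cow, which the labels do not state in words.

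The liver supplies most of the protein of blood plasma, and the hepatocyte is the cell that makes it. During inflammation hepatocytes raise the synthesis of positive acute-phase proteins, such as haptoglobin, fibrinogen and lipopolysaccharide-binding protein, and lower that of negative acute-phase proteins, among which albumin, transferrin, transthyretin and fetuin are the usual examples. SERPINA1 is counted as a positive acute-phase protein in several species, and in dairy cows the days around calving are known as a time when plasma positive acute-phase proteins are high.

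The liver libraries held from 14966847 to 26358063 counts (median 20466944) and the muscle libraries from 15279337 to 22018740. All 20 hepatocyte markers examined were counted in liver, and the muscle fibre markers summed to no more than 39.6 CPM there (CPM, counts scaled to a common library size). In muscle, the summed muscle fibre markers lay between 150376 and 241308 CPM at LP, between 33244 and 217351 CPM at EL and between 211814 and 295101 CPM at ML. A set of 8 liver and 5 muscle libraries stood apart. Each had a count of at least 50 in 11 or more of 19 genes, and every other library in at most 3 of them. The labels do not name this set. In liver it held cows 33 and 756 at LP, cows 33, 419 and 3847 at EL and cows 430, 829 and 3847 at ML, and results are given with and without these libraries where they touch a call. The tissue was bulk, so fewer cells of a type and less RNA per cell cannot be told apart in any value below.

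In liver the 6 genes took a large part of every library. By mean count over the 48 liver libraries ALB ranked 1 of 24616 genes, TF ranked 7, AMBP 10, SERPINA1 17, TTR 46 and AHSG 56. These ranks are of counts not divided by gene length, so they do not order the genes by transcript number. Together the 6 genes held 13.7% ± 3.82 (SD, n = 16) of the liver counts at LP, 8.89% ± 3.57 at EL and 12.9% ± 2.94 at ML. The lowest share was 2.58%, in cow 164 at EL, and the highest was 19.2%, in cow 1179 at LP. ALB alone held 9.97% ± 3.24 at LP, 6.09% ± 3.01 at EL and 9.50% ± 2.51 at ML.

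ALB encodes albumin, which carries fatty acids, hormones and drugs and holds the osmotic pressure of plasma. At LP its level ran from 24953 CPM in cow 430 through a median of 100783 to 155295 CPM in cow 1179. At EL it ran from 9894 CPM in cow 164 through a median of 56546 to 118000 CPM in cow 1000. At ML it ran from 40560 CPM in cow 829 through a median of 90967 to 141908 CPM in cow 3847. The ranges of the 3 time-points overlapped, and the EL values reached the lowest. Cows 426 and 430 had their lowest ALB level at LP, cows 829 and 996 had theirs at ML, and the other cows had theirs at EL. From LP through EL to ML, ALB stood at 93236, 56583 and 40560 CPM in cow 829. In cow 996 it stood at 120823, 95094 and 70688 CPM. In cow 426 ALB stood at 38696 CPM at LP, 97307 at EL and 57083 at ML, and in cow 430 at 24953, 64572 and 55166 CPM.

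TF encodes transferrin, which carries iron in plasma to cells that take it up through the transferrin receptor. Its level lay between 10573 and 29502 CPM at LP (median 17868), between 5764 and 20110 CPM at EL (median 12044) and between 8832 and 25303 CPM at ML (median 14802). The lowest EL value was that of cow 419 and the highest that of cow 1000. The LP and EL ranges overlapped, and the ML median lay between the other two.

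TTR encodes transthyretin, the carrier of thyroxine that also holds retinol-binding protein in plasma. It lay between 703 and 4907 CPM at LP (median 3502), between 583 and 3360 CPM at EL (median 1520) and between 1633 and 4967 CPM at ML (median 3314). Cow 426 held the lowest LP value, 703 CPM, and one of the highest EL values, 3213 CPM. Cow 164 went the opposite way, from 4489 CPM at LP to 583 CPM at EL and 4322 CPM at ML.

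AHSG encodes fetuin-A, which binds mineral in plasma and limits its deposition in soft tissue. Its levels were 1194 to 3889 CPM at LP (median 2707), 685 to 3633 CPM at EL (median 1633) and 1318 to 3803 CPM at ML (median 2608). The highest EL value belonged to cow 982, and the next Fert- cow, 426, was at 1982 CPM.

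AMBP encodes a precursor that is cut into alpha-1-microglobulin, a small carrier of heme and other ligands, and bikunin, the protease inhibitor of the inter-alpha-trypsin inhibitor family. Its levels were the tightest of the 6 genes, at 6491 to 9617 CPM at LP (median 7518), 3839 to 8991 CPM at EL (median 6453) and 5095 to 10476 CPM at ML (median 7924). SERPINA1 encodes alpha-1-antitrypsin, the main inhibitor of neutrophil elastase in plasma. Its levels were 3618 to 8585 CPM at LP (median 6096), 3225 to 8901 CPM at EL (median 5677) and 3091 to 7651 CPM at ML (median 5229). For SERPINA1 the 3 ranges nearly coincided.

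**Figure D1:**
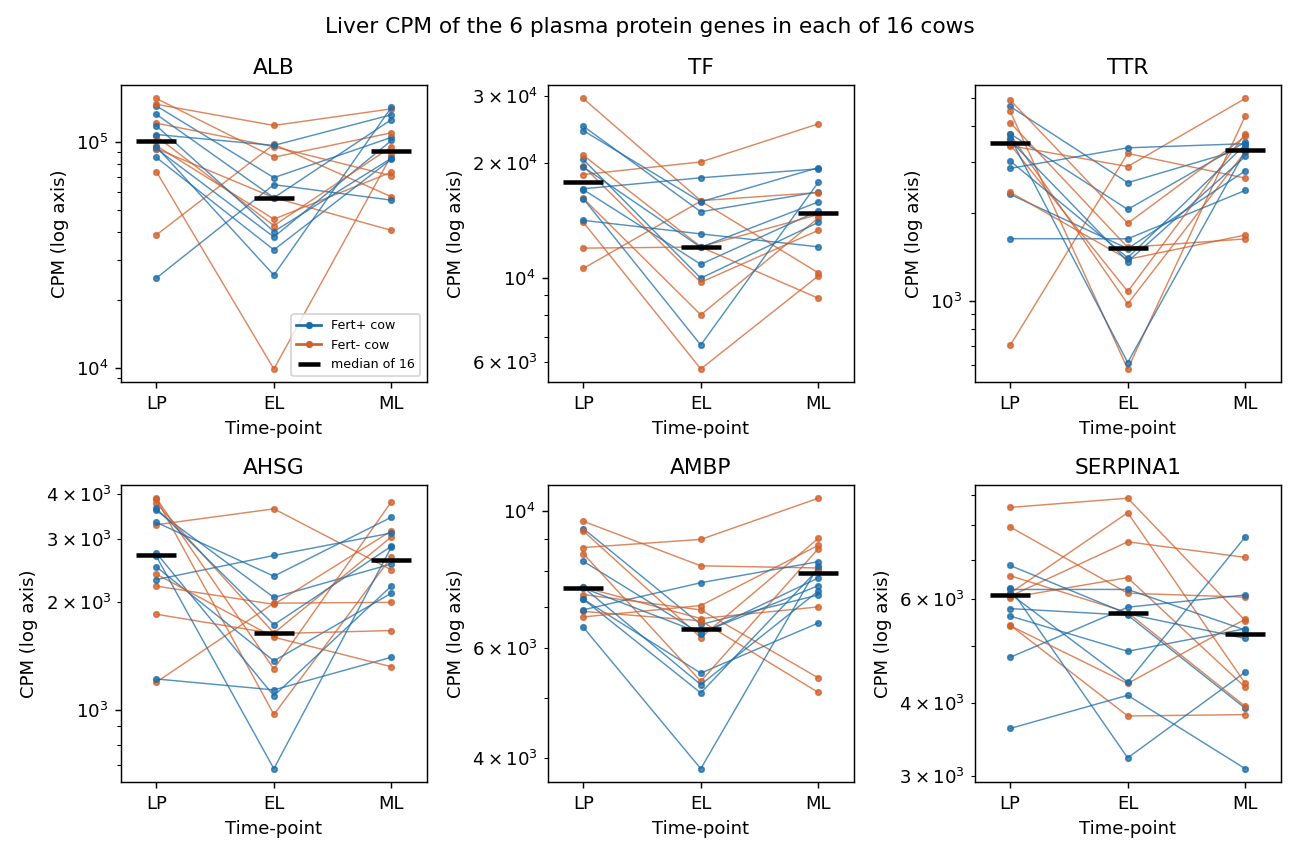
Level of each of the 6 genes in liver, in CPM on a log axis, at LP, EL and ML, with a line per cow, Fert+ in blue, Fert- in orange and the median of 16 as a black bar. The median of ALB, TF, TTR, AHSG and AMBP was lowest at EL (56546, 12044, 1520, 1633 and 6453 CPM), whereas that of SERPINA1 was lowest at ML (5229 CPM).

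The first comparison asked which of the 6 genes changed from late pregnancy to the time of calving. TF, TTR and AHSG were down-regulated at EL, and ALB and AMBP lay lower without passing the adjusted test. In the edgeR quasi-likelihood fit over 13815 genes, with cow as a block and Benjamini-Hochberg adjustment over all genes, the log2 fold change was -0.57 (SE 0.12, adjusted p = 0.0239) for TF. For TTR the change was -0.94 (SE 0.22, adjusted p = 0.0254), and for AHSG it was -0.67 (SE 0.16, adjusted p = 0.0255). For ALB it was -0.76 (SE 0.23, adjusted p = 0.0570), for AMBP -0.30 (SE 0.089, adjusted p = 0.0609) and for SERPINA1 -0.11 (SE 0.11, adjusted p = 0.562). Thus 3 of the 6 genes passed, all of them lower, where 2.4% of all genes tested passed (144 higher and 188 lower). The median log2 fold change was -0.62 over the 6 genes and 0.01 over all genes tested.

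Counted cow by cow, ALB was lower at EL than at LP in 14 of 16 cows, with a mean log2 difference of -0.83 ± 1.08 (SD) and cows 426 and 430 as the exceptions. TTR was lower in 14 of 16 cows (-0.96 ± 1.20), AHSG in 13 (-0.70 ± 0.79), AMBP in 13 (-0.30 ± 0.28), TF in 12 (-0.58 ± 0.55) and SERPINA1 in 9 (-0.12 ± 0.37). An exact two-sided test over all 65536 exchanges of the 2 values within cows, one gene at a time and unadjusted, gave p = 0.00854 for ALB and p = 0.00668 for TTR. The same exact test gave p = 0.00345 for AHSG, p = 0.000885 for AMBP, p = 0.0015 for TF and p = 0.197 for SERPINA1. AMBP therefore moved less than ALB and TTR, but with less spread between cows.

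The adjusted call was sensitive to the libraries in the fit. With only the 32 libraries of LP and EL, 0 of the 6 genes passed (adjusted p = 0.127 for TF, 0.138 for TTR and 0.134 for AHSG), with log2 fold changes of -0.59, -0.997 and -0.70. In Fert- cows alone 0 passed (adjusted p = 0.952 for each of the 3), and in Fert+ cows alone 3 passed. No member passed when cow 164, 756, 782, 3397 or 3445 was left out, 1 passed without cow 1179, 2 without cow 419, 4 without cow 430 or 3434 and 5 without cow 426. Without the 8 liver libraries that stood apart 0 of the 6 genes passed, and over the 12 cows with no such library at LP or EL the exact test gave p = 0.0229 for TF and p = 0.0122 for AMBP. In those 12 cows the exact test gave p = 0.0757 for ALB, p = 0.0610 for TTR, p = 0.0508 for AHSG and p = 0.358 for SERPINA1, with mean log2 differences of -0.67, -0.76, -0.43 and -0.11.

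The second comparison followed the same genes from calving to mid-lactation. ALB, TTR, AHSG and AMBP were up-regulated at ML compared with EL. The log2 fold change was 0.90 for TTR (SE 0.22, adjusted p = 0.00179), 0.68 for ALB (SE 0.23, adjusted p = 0.0166), 0.55 for AHSG (SE 0.16, adjusted p = 0.00677) and 0.28 for AMBP (SE 0.089, adjusted p = 0.0135), all by the edgeR quasi-likelihood test. TF, at 0.29 (SE 0.12, adjusted p = 0.0592), and SERPINA1, at -0.15 (SE 0.11, adjusted p = 0.264), did not pass. This count of 4 of 6 stands against a background in which 41.6% of all genes passed (2950 higher and 2799 lower). The median over the 6 genes was 0.42, and that over all genes was -0.000905.

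TTR was higher at ML in 15 of 16 cows (exact within-cow p = 0.000183), AHSG in 14 (p = 0.00262), TF in 13 (p = 0.0219), AMBP in 13 (p = 0.00964) and ALB in 12 (p = 0.00839). SERPINA1 was lower in 10 of 16 cows (exact p = 0.228). The largest differences of ALB and TTR, 3.14 and 2.89 on the log2 scale, were in cow 164, the cow with the deepest trough at EL. In the fit of Fert- cows alone 0 of the 6 genes passed, with ALB at 0.36 (adjusted p = 0.523), TTR at 0.92 (0.126), AHSG at 0.41 (0.316) and AMBP at 0.13 (0.586), and in that of Fert+ cows alone 4 passed. Whether the time course differed between genotypes was tested by the interaction given with the genotypes. In the fit 2 of the 6 genes passed without the libraries that stood apart. Over the 11 cows with none at EL or ML the exact test gave p between 0.00488 (TTR) and 0.0332 (TF) for the carriers and AMBP, and p = 0.464 for SERPINA1.

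The third comparison set mid-lactation beside late pregnancy. None of the 6 genes passed the edgeR quasi-likelihood test, where 15.2% of all genes did, and 2 had an unadjusted p under 0.05. These were TF, at a log2 fold change of -0.28 (SE 0.12, adjusted p = 0.110), and SERPINA1, at -0.26 (SE 0.11, adjusted p = 0.0893). DESeq2 called 1 of the 6 genes, and the quasi-likelihood fit without cow 3847 called SERPINA1, at -0.31 (adjusted p = 0.0309). The other members lay between -0.12 and -0.02, with SEs of 0.22 for ALB, 0.21 for TTR, 0.16 for AHSG and 0.089 for AMBP. Within cows, TF was lower at ML in 13 of 16 (exact p = 0.00589) and SERPINA1 in 12 of 16 (exact p = 0.00903). The ML medians of ALB, TF, TTR and AHSG lay between their LP and EL medians, that of AMBP lay above both, and that of SERPINA1 lay below both.

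**Figure D2:**
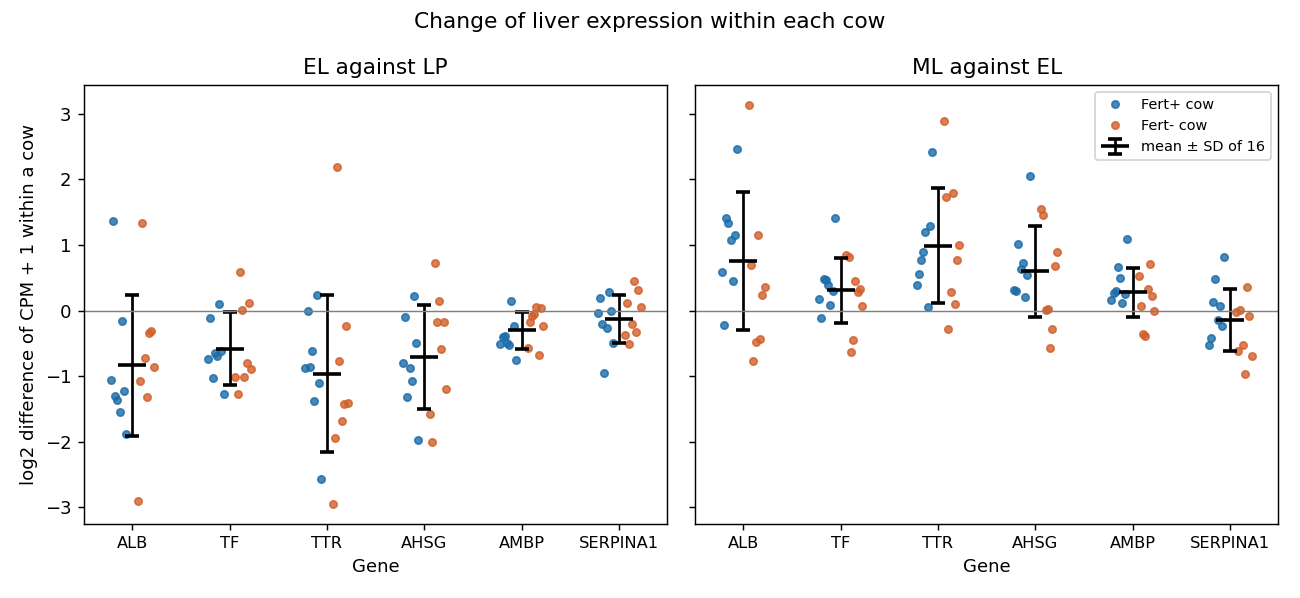
Change of each of the 6 genes within each cow, as the difference of log2(CPM + 1) at EL against LP (left) and at ML against EL (right), with a point per cow, Fert+ in blue and Fert- in orange, and the mean ± SD of 16 in black. For EL against LP the mean was -0.83 for ALB and -0.96 for TTR with 14 of 16 cows below 0, and for ML against EL it was 0.76 and 0.99.

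Other plasma proteins moved in several directions at EL. Of 10 other plasma carriers tested, 1 rose and 1 fell from LP to EL. HP, haptoglobin, the scavenger of free hemoglobin, rose by a log2 fold change of 4.37 (SE 1.21, adjusted p = 0.0488), and VTN, vitronectin, fell by 0.38 (SE 0.099, adjusted p = 0.0383). PON1, paraoxonase, had a log2 fold change of -0.48 (adjusted p = 0.0525). Over the 10 carriers the median was -0.29. At ML against EL 3 of the 10 rose and 2 fell, and at ML against LP 0 passed. Over all genes 2.4% passed at EL against LP, 41.6% at ML against EL and 15.2% at ML against LP. The carriers called at ML against EL were thus near the share of all genes.

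Of 16 other plasma protease inhibitors, 0 passed at EL against LP, and their median log2 fold change was -0.06. The inhibitors with the smallest p were ITIH1, a heavy chain that bikunin is bound to (-0.31, adjusted p = 0.0734), SERPIND1, heparin cofactor II (-0.46, adjusted p = 0.0739), and ITIH4, which is also an acute-phase protein (1.33, adjusted p = 0.0779). From EL to ML 1 of the 16 rose and 8 fell, ITIH4 among them (-1.95, adjusted p = 0.000638), and from LP to ML 2 fell. The shares of all genes that passed were 2.4% from LP to EL, 41.6% from EL to ML and 15.2% from LP to ML.

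Of 14 positive acute-phase genes, 1 passed at EL against LP, which was HP again, and the median of the list was 0.84. HAMP, hepcidin, had a value of 1.27 (adjusted p = 0.0609), and SAA4, a serum amyloid A gene whose family members share sequence, had one of 0.96 (adjusted p = 0.0669). From EL to ML 11 of the 14 fell and 0 rose, with a median of -1.14, and from LP to ML 0 passed. Among all genes 2.4% passed from LP to EL, 41.6% from EL to ML in either direction and 15.2% from LP to ML. HP belongs to the carriers and to the acute-phase list, and ITIH4 to the inhibitors and the acute-phase list.

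Of 8 genes of iron handling, 1 fell from LP to EL. This was TFRC, the receptor that takes up iron-loaded transferrin, at -0.50 (SE 0.13, adjusted p = 0.0353), and SLC39A14, a hepatic importer of iron not bound to transferrin, was at 0.53 (adjusted p = 0.123). TFRC stayed lower at ML than at LP (-0.45, adjusted p = 0.0153). From EL to ML 3 of the 8 fell, SLC39A14 among them (-0.72, adjusted p = 0.00455). That count was near the share of all genes that passed from EL to ML, 41.6%. The shares of all genes were 2.4% from LP to EL and 15.2% from LP to ML.

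Markers of the cells in the biopsy were read beside these values. Of the 20 hepatocyte markers 3 fell from LP to EL and 0 rose: APOH (-0.49, adjusted p = 0.0240), which encodes beta-2-glycoprotein I, CYP2E1 (-1.002, adjusted p = 0.0372), an ethanol-oxidising cytochrome, and VTN. This list shares FGA, FGB and FGG with the acute-phase list, and its summed level ran from 71387 to 222754 CPM at LP, from 75518 to 306832 CPM at EL and from 52534 to 189070 CPM at ML. Of 5 stellate and fibroblast markers 1 fell at EL (ACTA2, smooth muscle actin, -1.23, adjusted p = 0.0112), and 0 of 6 macrophage, 2 endothelial, 4 bile duct and 4 blood cell markers passed. Over all genes 2.4% passed from LP to EL. From EL to ML 4 of 6 macrophage, 2 of 2 endothelial, 4 of 5 stellate and fibroblast and 2 of 4 bile duct markers rose, and 3 of 4 blood cell markers fell, where 41.6% of all genes passed in either direction. The 4 blood cell markers summed to a median of 7.10 CPM at EL, but to 285 CPM in cow 164, 104 CPM in cow 3847 and 103 CPM in cow 982. Cows 164 and 3847 had the lowest EL values of ALB and TTR in their genotypes, and cow 982 had neither, but the highest EL value of AHSG. The part of these cells in the levels of the 6 genes was not tested.

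The cows with the lowest ALB values at LP and EL also stood out in acute-phase transcripts. The 14 positive acute-phase genes summed to 281847 CPM in cow 426 and 267608 CPM in cow 430 at LP, where the median was 66716 CPM, and these cows had the 2 lowest LP values of ALB, 38696 and 24953 CPM. At EL the highest sums were 416701 CPM in cow 164 and 278893 CPM in cow 3847, beside ALB values of 9894 and 25722 CPM, and the median was 146134 CPM. At ML the highest sum, 200168 CPM, was in cow 996, which also held the lowest ML values of TTR (1633 CPM) and AHSG (1318 CPM). The lowest ML values of ALB did not all go with high sums. Cow 829, at 40560 CPM of ALB, had a sum of 49788 CPM (median 56285). Cow 426, at 57083 CPM of ALB, had the lowest sum, 35306 CPM. Single acute-phase genes were mixed in these cows and in cow 430, at 55166 CPM of ALB. HP at ML was at 2536 CPM in cow 829, 2115 in cow 430 and 398 in cow 426 (median 432). LBP, the lipopolysaccharide-binding protein, was at 263, 420 and 72.5 CPM (median 123). HP itself ran from 53.95 to 41572 CPM at LP (median 596), from 51.7 to 52908 CPM at EL (median 13287) and from 25.1 to 26293 CPM at ML (median 432).

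The change from LP to EL in one gene was next compared with that in another across the 16 cows. The change of ALB was set against that of 9 genes, with Pearson's r, Spearman's rho and permutation tests of 100000 resamples adjusted over the 9 relations. Both changes in a relation come from the same libraries. The p-values given with each relation are those of r. For rho the adjusted permutation p was 0.00567 for TTR, 0.00663 for TF and 0.0596 for AMBP. ALB correlated with TTR (r = 0.85, rho = 0.71, p = 7.0e-05, adjusted p = 0.000315), TF (r = 0.75, rho = 0.67, p = 0.00046, adjusted p = 0.000828) and AHSG (r = 0.71, rho = 0.69, p = 0.00155, adjusted p = 0.00232). It correlated inversely with FGB, the fibrinogen beta chain (r = -0.84, rho = -0.83, p = 3.0e-05, adjusted p = 0.00027), HP (r = -0.81, rho = -0.74, p = 0.00042, adjusted p = 0.000828) and LBP (r = -0.79, rho = -0.79, p = 0.00033, adjusted p = 0.000828). RBP4, the retinol-binding protein that TTR carries, followed ALB (r = 0.64, rho = 0.68, p = 0.0086, adjusted p = 0.0111). For AMBP (r = 0.39, rho = 0.50, p = 0.140, adjusted p = 0.157) and SERPINA1 (r = 0.22, rho = 0.37, p = 0.406, adjusted p = 0.406) the relation did not pass.

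Cows 426 and 430, in which ALB was higher at EL, lay farthest from the median change. Without them r was 0.79 for TTR, 0.62 for TF, 0.61 for AHSG, -0.80 for FGB, -0.68 for HP, -0.73 for LBP and 0.80 for RBP4. In the 10 cows without a library that stood apart at any time-point, the same 7 of 9 relations passed by permutation test of r. By that of rho RBP4 did not pass there (adjusted p = 0.0766). Among the 8 Fert- cows 5 passed by permutation test of r, and among the 8 Fert+ cows 0 passed after adjustment. In Fert+ r ranged from -0.75 for FGB to 0.79 for TF over the 7 relations, and the adjusted permutation p of r was at least 0.0791. The permutation test of rho did pass in Fert+ for AHSG and SERPINA1 (rho = 0.88 each) and FGB (rho = -0.88), with adjusted p = 0.0223 each. A difference between the genotypes in these correlations was not tested.

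**Figure D3:**
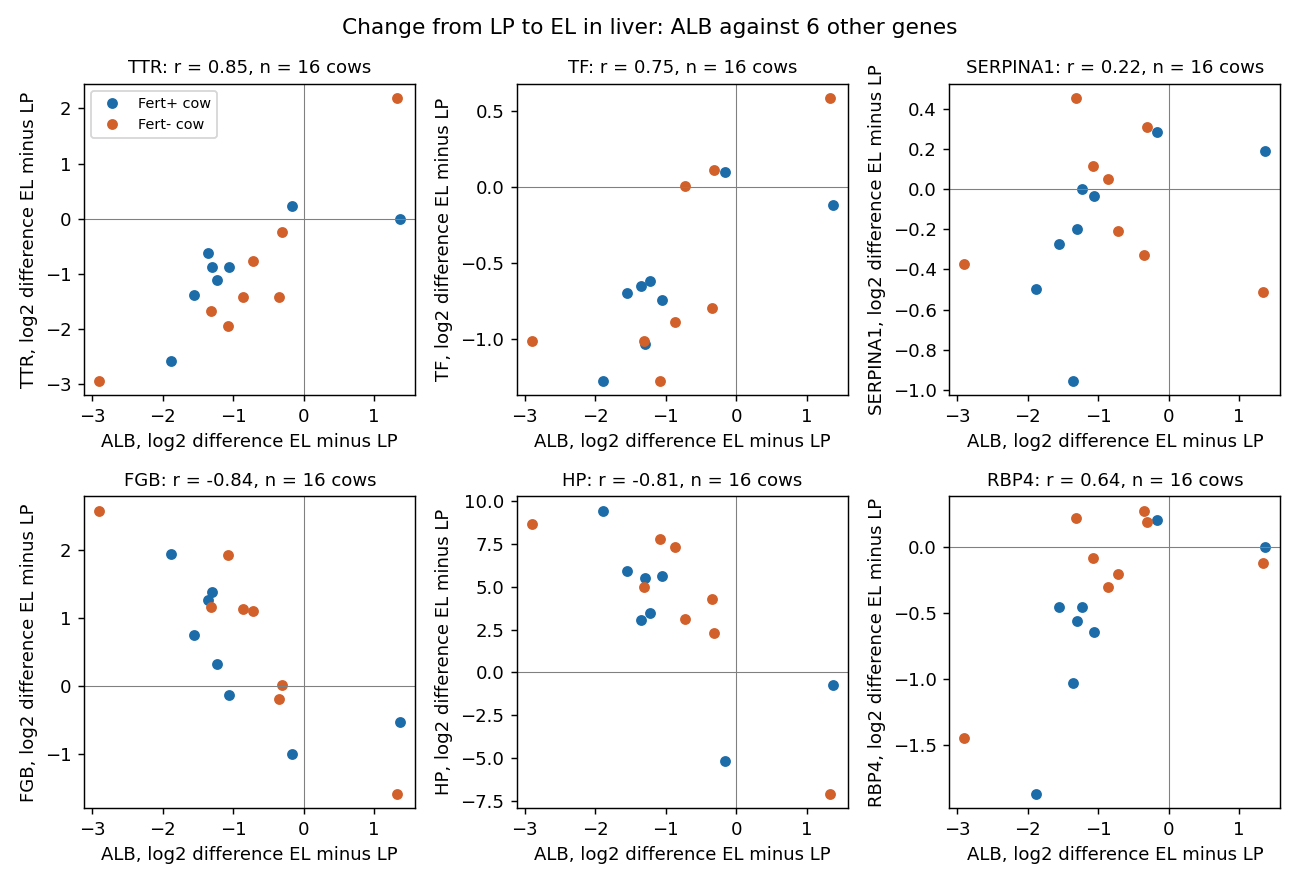
Change of ALB from LP to EL in liver (x axis) against that of TTR, TF, SERPINA1, FGB, HP or RBP4 in the same cow (y axis), as differences of log2(CPM + 1), with a point per cow, Fert+ in blue and Fert- in orange. Points rise from left to right for TTR (r = 0.85) and fall for HP (r = -0.81) and FGB (r = -0.84), and the SERPINA1 points show little slope (r = 0.22).

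Over the 48 liver libraries the 6 genes were also compared with each other as a description, since libraries of a cow and time-point share their effects. ALB, TF and TTR varied together, with r of log2(CPM + 1) of 0.84 for ALB and TTR, 0.79 for ALB and TF and 0.77 for TF and TTR. SERPINA1 was the least alike, with r of 0.32 to ALB, 0.36 to TF, 0.16 to TTR, 0.45 to AHSG and 0.52 to AMBP. Among the other 13814 genes kept by the filter, those most like ALB included MGC152010 (r = 0.89) and the carboxylesterase CES2 (r = 0.86). ENSBTAG00000005479 and ENSBTAG00000003523, for which no symbol was at hand, were also among them with r of 0.85 each. The genes most like SERPINA1 included C1R, a complement protease (r = 0.72), ATP5G2 (r = 0.72), RPL19 (r = 0.69) and ENSBTAG00000032150 (r = 0.69).

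Genotype was compared at each time-point, which is the contrast the herd was built for. None of the 6 genes passed the test between Fert+ and Fert- cows in liver. At LP 0% of 12872 genes passed the edgeR quasi-likelihood test, at EL 0% of 13047 and at ML 0% of 13235, so the members were as the background. At an unadjusted p under 0.05 there were 842 genes at LP, 1530 at EL and 1640 at ML, and 0 of the 6 members at each, with lowest member p of 0.178, 0.0985 and 0.223. DESeq2 called 0, 6 and 77 genes at the 3 time-points, and 0 members.

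For ALB the Fert+ mean at LP was 99972 ± 36362 CPM (SD, n = 8), and the Fert- mean was 103723 ± 37927 CPM. At EL the means were 52964 ± 23353 and 68787 ± 35962 CPM, and at ML 103488 ± 28856 and 84095 ± 31128 CPM. The genotype ranges overlapped at every time-point. The largest distance relative to its spread was in AMBP at EL, where the Fert+ mean of 5818 ± 1157 CPM lay under the Fert- mean of 7000 ± 1130 CPM by a log2 difference of -0.28 (two-sided exact permutation p = 0.0573 over all arrangements of the 16 cows, unadjusted). For SERPINA1 at EL the means were 4989 ± 1028 CPM for Fert+ cows and 6411 ± 1821 CPM for Fert- cows (log2 difference -0.34, exact permutation p = 0.102). At ML the genotypes were nearly level for both genes, with log2 differences of 0.0043 and 0.0053 (exact permutation p = 0.976 and 0.974). A genotype by time-point interaction was called for 0% of the 13815 genes by the quasi-likelihood test. At an unadjusted p under 0.05 it held for 1067 genes and 0 members, whose lowest p was 0.282 (adjusted p = 0.782).

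The spread between cows was then compared between time-points, over all genes, by an exact test of the variance of log2(CPM + 1). EL was the time-point with the widest spread for all 6 genes, but 0 of them passed. The SD between cows at LP, EL and ML was 0.70, 0.90 and 0.52 for ALB, 0.70, 0.75 and 0.43 for TTR, 0.54, 0.59 and 0.45 for AHSG and 0.39, 0.51 and 0.39 for TF. For AMBP it was 0.18, 0.30 and 0.26, and for SERPINA1 0.28, 0.41 and 0.35. Over all genes 0.318% passed for EL against LP, 2.2% for EL against ML and 0% for ML against LP, and the lowest adjusted p of a member was 0.430 (AMBP), 0.330 (TTR) and 0.796 (AMBP). The median gene had an SD at EL that was 1.28 times that at LP, and over the 6 genes this ratio ran from 1.08 (TTR) to 1.64 (AMBP), with ALB at 1.29.

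In muscle the 6 genes were present only in traces. ALB was counted in 16 of 16 muscle libraries at LP, 15 at EL and 16 at ML, and the lowest liver value was 6751 times the highest muscle value at LP, 400.7 times at EL and 368 times at ML. At LP the muscle level of ALB ran from 0.109 to 3.70 CPM (median 0.422), with the highest value in cow 3847. At EL it ran from 0 to 24.7 CPM (median 0.354), with the highest value in cow 996. At ML it ran from 0.125 to 110 CPM (median 6.27). A count of 3, the limit below which a level is not resolved in a library, corresponds to 0.123 to 0.221 CPM, so most LP and EL values rest on few counts (median 7.5 and 7.0).

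The high ML values were in 5 cows of both genotypes. ALB was at 110 CPM in cow 33 (Fert+), 107 CPM in cow 1179 (Fert-), 52.3 CPM in cow 1000 (Fert-), 52.2 CPM in cow 996 (Fert-) and 42.0 CPM in cow 3445 (Fert+). In the other 11 cows it stayed at or below 13.2 CPM. The sum of the 6 genes was 58.1 to 162 CPM in those 5 cows and 0.125 to 21.7 CPM in the other 11. None of these 5 libraries belonged to the muscle libraries that stood apart, which were those of cow 164 at EL and ML and of cow 419 at all 3 time-points.

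The other genes followed the same libraries. Cow 33 at ML held the highest muscle value of TTR (6.86 CPM), AHSG (5.08 CPM), AMBP (12.3 CPM) and SERPINA1 (12.01 CPM), and cow 1179 that of TF (17.1 CPM). At LP the highest values were 0.560 CPM for TF, 0.443 for TTR, 0.112 for AHSG, 0.896 for AMBP and 0.224 for SERPINA1, and AHSG was at 0 in 13 of 16 libraries. An AHSG count of 0 allows up to 0.221 CPM in the LP library where a count weighs most, counting error only.

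Within cows ALB was higher at ML than at EL in 15 of 16 (mean log2 difference 2.40 ± 2.34, exact p = 0.00058) and higher at ML than at LP in 14 of 16 (2.61 ± 2.35, exact p = 0.000549). The difference between EL and LP was smaller than the spread between cows (0.21 ± 1.29, exact p = 0.549). For the other 5 genes the exact p of ML against EL lay between 0.000122 (TTR) and 0.00565 (SERPINA1), with mean log2 differences of 0.69 to 1.30. The edgeR fit of ALB gave log2 fold changes of 3.70 (SE 0.76, adjusted p = 0.000112) for ML against EL, 4.36 (SE 0.82, adjusted p = 0.000866) for ML against LP and 0.67 (SE 0.93, adjusted p = 0.557) for EL against LP. In these fits 7980, 1138 and 7271 of 12675 genes were called. TF and AMBP passed the filter on low counts through their ML libraries. TTR and SERPINA1 passed it through ML libraries together with EL libraries, where their highest counts were 15 and 69 (cow 996). AHSG did not pass it. ALB also had higher counts in some LP and EL libraries, up to 66 and 515. The muscle calls of the members are not counted as a result. Between genotypes in muscle only ALB, TF and AMBP at ML had enough counts for the edgeR quasi-likelihood test, and none passed (adjusted p = 0.952, 0.911 and 0.927). The other members, and all 6 genes at LP and EL, were not tested by that fit. The exact permutation test was run on all 6 genes at each time-point, and its lowest p was 0.0863 (SERPINA1 at LP, unadjusted).

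**Figure D4:**
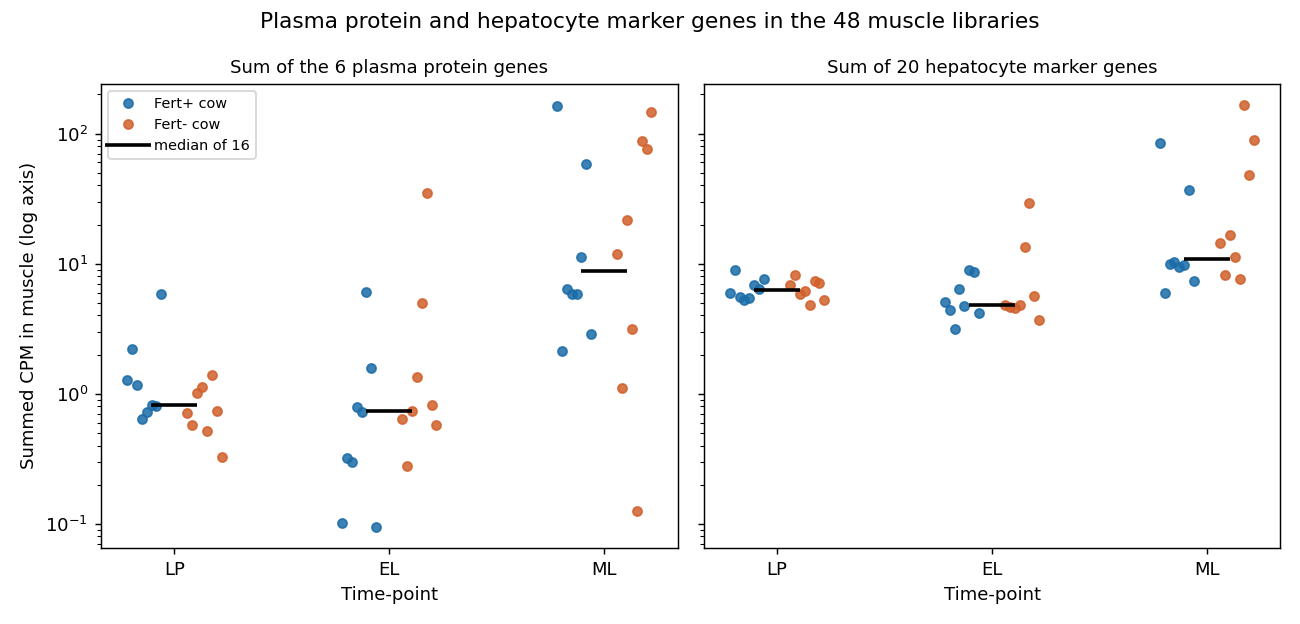
Summed CPM in each of the 48 muscle libraries, on a log axis, of the 6 plasma protein genes (left) and of 20 hepatocyte markers (right) at LP, EL and ML, with a point per cow, Fert+ in blue, Fert- in orange and the median of 16 as a black bar. At ML 5 cows stand above the rest on both sides, at 58.1 to 162 CPM for the 6 genes and 37.2 to 167 CPM for the markers.

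Other hepatocyte transcripts moved with the 6 genes in muscle. At ML the 5 cows with the highest sum of the 6 genes were also the 5 with the highest sum of 20 hepatocyte markers, at 37.2 to 167 CPM against 5.94 to 16.6 CPM in the other 11. All 20 markers were counted in each of those 5 libraries, and 8 to 20 in the others. At EL 4 of the 5 highest cows were shared and at LP 3 of the 5. FBP1, APOA1, FGB and SERPINC1 were counted in every muscle library at each time-point. At LP APOB was at 0 in 15 of 16 libraries, ASGR1, a receptor of the hepatocyte surface, in 14 and APOC3 in 13, and at ML they were at 0 in 6, 5 and 4. The muscle fibre markers at ML were high in every library, as given above. The part of hepatocyte RNA in these traces, and where it came from, was not tested.

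The make-up of the traces was compared with that of the liver of the same cow and time-point, in the 13 muscle libraries with at least 100 counts of the 6 genes (1 at LP, 3 at EL and 9 at ML). The order of the shares was broadly that of liver, with ALB first in all. AMBP, TTR, SERPINA1 and AHSG took larger shares than in liver in most of these libraries. The median share of ALB was 68.2% in muscle and 73.3% in liver, and it was higher in muscle in 1 of 13 libraries. TF took 10.2% in muscle and 12.1% in liver and was higher in muscle in 2 of 13. TTR took 4.24% and 2.51% (higher in muscle in 12), AHSG 3.003% and 2.01% (in 9), AMBP 6.82% and 5.52% (in 13) and SERPINA1 6.67% and 3.98% (in 11). The liver share lay inside the 95% Wilson interval of the muscle share in 5 of 13 libraries for ALB, 11 for TF, 7 for TTR, 8 for AHSG, 8 for AMBP and 7 for SERPINA1. These intervals cover counting error only.

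**Figure D5:**
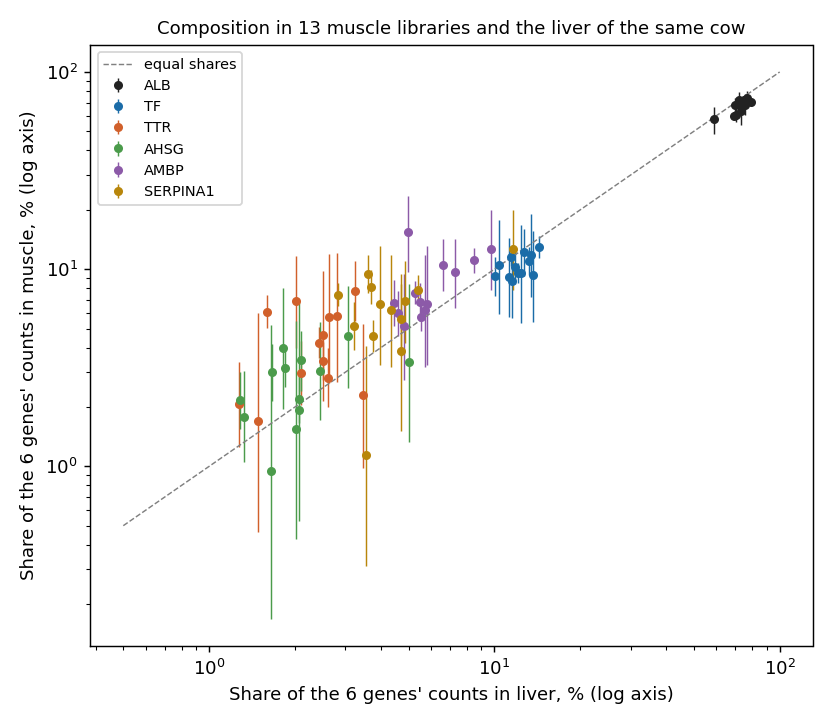
Share of each of the 6 genes in their summed count, in percent on log axes, in 13 muscle libraries (y axis, bars are 95% Wilson intervals) against the liver library of the same cow and time-point (x axis), with a point per library and the dashed line marking equal shares. AMBP points lie above the line in 13 of 13 libraries, and ALB points lie above it in 1 of 13.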

How the data were processed

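Liver and muscle biopsies of 16 Holstein cows at LP, EL and ML gave 96 polyA libraries. The authors trimmed the reads, aligned them with STAR to UMD3.1 and counted read pairs per gene (Ensembl release 70) with featureCounts; the submitters' notes also name CASAVA 1.8 and edgeR. The deposited values are raw, unnormalised counts, 1 file per library. A further 96 columns that carry no sample names were not used. Symbols came from 2350 pairs of identifier and symbol in the study's supplementary tables.

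CPM were computed here from the counts with TMM factors, without gene length, and log2 values are log2(CPM + 1). Genes were filtered with filterByExpr (edgeR 4.0.16, R 4.3.3) and fitted with the robust quasi-likelihood test, Benjamini-Hochberg adjusted at 0.05 over all genes tested. Time-points were compared over the 48 libraries of a tissue with cow as a block, and genotypes within a time-point without it. SEs are the log2 fold change divided by the root of the F statistic. The block was kept because libraries of a number come from 1 cow; in liver 39 of 48 same-cow pairs had deviations from the group means correlated above 0.1 (median 0.235), and in muscle 42 of 48. The exact test over exchanges within cows was chosen after the values had been seen. Genotype permutations were exact, over all arrangements of the cows. DESeq2 1.42.0 and the study's own common-dispersion test were alternatives. The fits and the exact test of spread were tested on simulated data. No pair of libraries within a group was alike enough to be 1 library deposited again.

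Named genes were the 6 members, at most the 3 genes of each list with the smallest p at EL against LP, and the 5 most like ALB and SERPINA1, of which some are not reported here. The members and lists were chosen with earlier results of these data known. The labels do not say that a cow's biopsies were prepared or sequenced together. A share of counts and every floor cover counting error only.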

Additional observations from a re-analysis of the deposited data

Results flagged for a closer look

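In each group of 8 libraries the highest and the lowest member value were tested for a gap to the nearest library that is wide against the range of the group (Dixon's test at its 95% critical value). Over 59 groups tested there were 16 such values, 1 in liver and 15 in muscle. For normally distributed values chance gives about 1 group in 20. The muscle CPM were skewed, as for ALB at ML (median 6.27, highest 110 CPM), so that rate need not hold for them. In liver AHSG of cow 982 stood apart among the Fert- cows at EL, at 3633 CPM with the nearest cow at 1980 CPM.

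The muscle values belonged to 4 cows, and in 2 of them all 6 genes stood apart. Cow 33 at ML (Fert+) held 110 CPM of ALB, 15.5 of TF, 6.86 of TTR, 5.08 of AHSG, 12.3 of AMBP and 12 of SERPINA1, with the nearest ALB value at 42.0 CPM. Cow 996 at EL (Fert-) held 24.7 CPM of ALB, 3.21 of TF, 0.719 of TTR, 0.623 of AHSG, 2.35 of AMBP and 3.31 of SERPINA1, with the nearest ALB value at 2.86 CPM. Cow 3434 at EL (Fert+) held 4.37 CPM of ALB and 0.563 of TF, and cow 3847 at LP (Fert+) held 3.70 CPM of ALB. The 6 values of a library are not independent of each other.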

How the results depend on the processing

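From LP to EL in liver, 3 of the 6 genes passed in the reported fit, 5 with DESeq2, and 0 each with only the 32 libraries of both time-points, in Fert- cows alone and without the libraries that stood apart, with 0 to 5 when a cow was left out. From EL to ML 4 passed, 0 in Fert- cows alone and 2 without those libraries (4 to 5 with a cow left out). From LP to ML 0 passed, 2 with only 32 libraries and 1 with DESeq2 (0 to 1 with a cow left out). The cause was not tested. Without the cow block the members called were 3, 4 and 0, the genes called 369, 5314 and 1649 in place of 332, 5749 and 2095, and the muscle log2 fold changes of ALB 1.51, 3.63 and 5.14; dropping the block changed no member's call. Over all genes EL against LP gave 0 genes with 32 libraries, in Fert- alone and without the libraries that stood apart, 735 in Fert+, 193 with no filter, 895 with DESeq2 and 7 to 1451 with a cow left out. ML against EL gave 818 in Fert- alone, and ML against LP 3173 with 32 libraries, 39 in Fert+ and 958 in Fert- alone. Between genotypes in liver the common-dispersion test called 306, 301 and 279 genes at LP, EL and ML, DESeq2 0, 6 and 77, and the fit over 48 libraries 362 at EL. The spread test called 0 genes for EL against LP with an offset of 0.1, centred within genotype or without cows of the libraries that stood apart, and 55 (centred) and 0 (without those cows) for EL against ML. For muscle ALB, EL against LP turned to -0.74 in Fert+ (-0.018 to 1.38 with a cow left out), and ML against LP was 3.46 there (adjusted p = 0.101). The common-dispersion test called 1 member between genotypes in muscle at ML. In Fert+ alone 0 of the 9 correlations passed by the permutation test of r.

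Values near 0 turned sign. From LP to ML, TTR became 0.021 with 32 libraries, 0.015 in Fert+, 0.040 without the libraries that stood apart, 0.029 in the within-cow test and 0.10 in that test without their cows. AMBP became 0.013 in Fert+, 0.028 without those libraries and 0.022 in the within-cow test without their cows, ALB 0.071 in Fert+, and SERPINA1 0.0077 in Fert+ from EL to ML. Between genotypes the permutation difference was 0.022 (TTR) and 0.0064 (AHSG) at LP and 0.059 (TTR) and 0.0043 (AMBP) at ML. Without the libraries that stood apart, TF was -0.010 at EL, SERPINA1 -0.048 at ML and the TF interaction 0.023. ALB with SERPINA1 gave r = -0.20 in Fert-. With a cow left out, TTR ran from -0.11 to 0.035 and AMBP from -0.047 to 0.0051 for ML against LP. Between genotypes at LP, ALB ran from -0.17 to 0.096, TTR from -0.25 to 0.0060 and AHSG from -0.14 to 0.084. At EL, TF ran from -0.075 to 0.16, TTR from -0.082 to 0.30 and AHSG from -0.30 to 0.054. At ML, TTR ran from -0.13 to 0.083, AHSG from -0.061 to 0.14, AMBP from -0.10 to 0.040 and SERPINA1 from -0.082 to 0.10. Depth limits the muscle values, most of which at LP and EL rest on fewer than 10 counts, and it does not limit the liver values.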

Other observations

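The genes most like TF, TTR, AHSG and AMBP were read in the same way as for ALB and SERPINA1, and these names were chosen after their values had been seen. Over the 48 liver libraries TTR was closest to FADS2, a fatty acid desaturase (r = 0.91), and also followed CES1, a carboxylesterase (r = 0.87), and PSAT1, an enzyme of serine synthesis (r = 0.85). TF was closest to APOH (r = 0.88) and ACSL5, an acyl-CoA synthetase (r = 0.84). AMBP followed OS9 (r = 0.85) and TMBIM6 (r = 0.85), both proteins of the endoplasmic reticulum, and the secreted APOA2 (r = 0.85) and VTN (r = 0.85). ENSBTAG00000003523, for which no symbol was at hand, was among the 5 genes most like each of ALB, TF and TTR (r = 0.85, 0.86 and 0.86). These values are descriptions over libraries that share cows and time-points.

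In cow 982 ALB went from 105595 CPM at LP to 42564 at EL and 95003 at ML, and TTR from 3444 to 1077 and 3750 CPM, whereas AHSG went from 3281 to 3633 and 2455 CPM and SERPINA1 from 6140 to 8410 and 4316 CPM.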
